A study of Saccharomyces cerevisiae with 4 samples.

Results

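The 60S ribosomal protein genes of budding yeast were compared between thiolutin-treated and DMSO-treated cells arrested in G2/M. They were chosen by name as the protein-coding genes called RPL followed by a number, plus the 5 stalk genes RPP0, RPP1A, RPP1B, RPP2A and RPP2B. This gave 81 genes, 76 RPL genes and 5 stalk genes, of 7071 gene rows in the tables, 5988 of which were protein-coding genes of the R64 annotation. RPP1, a subunit of RNase P and RNase MRP that the name pattern also catches, is not a ribosomal protein and was left out. The 81 genes encode 46 proteins, 35 of them from a pair of duplicated genes (paralogs, A and B) and 11 from 1 gene. Total RNA was sequenced from 2 thiolutin libraries and 2 DMSO libraries, with replicates a and b in each group. All 4 came from wild-type cells (genotype label WT, strain label CB67, W303 background) grown in YEPD and held in G2/M with benomyl at 80 μg/ml for 90 min at 30°C. The thiolutin group was given 20 μg/ml of thiolutin, an inhibitor of yeast RNA polymerases, for 30 min, and the other group was treated with DMSO, the solvent. To each pellet of 45 ml of culture, a pellet of 5 ml of Schizosaccharomyces pombe cells was added before RNA extraction. The labels do not say whether a and b were separate cultures, so p-values measure only the spread between these samples.

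The large subunit of the ribosome joins amino acids in its peptidyl transferase centre, passes the chain out through an exit tunnel, and binds elongation factors through a flexible stalk. Its proteins are made in nearly equal numbers, and in growing yeast their mRNAs are among the most abundant. Rap1, Fhl1, Ifh1 and Sfp1 activate most of these genes, many of which carry an intron, unlike most yeast genes. Paralog pairs date mainly from the whole-genome duplication, and their products are often nearly identical.

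The libraries held 38613462 and 11598766 expected counts (estimated numbers of reads per gene) with thiolutin, and 27262771 and 48045781 with DMSO. Protein-coding genes took 6.56% and 8.12% of these with thiolutin, against 11.8% and 11.2% with DMSO. Thiolutin replicate b was therefore the shallowest, and its lowest 60S gene still had 38.4 expected counts. The summed level of 8 mitotic marker genes, led by CLB1, CLB2 and CDC5 with DMSO, was 70.9 and 83.9 rescaled TPM with thiolutin and 179 and 190.5 with DMSO. For 7 G1 marker genes it was 13.9 and 12.4 with thiolutin and 22.6 and 23.1 with DMSO. Rescaled TPM is the length-adjusted TPM brought to the same total over protein-coding genes in every library. SWI5 overlapped between groups at 9.50 and 18.8 with thiolutin and 7.91 and 11.8 with DMSO, and CLN2 was slightly higher with thiolutin, at 2.92 and 2.15 against 1.88 and 2.10 with DMSO. Mitotic markers exceeded G1 markers in every library, and whether the lower marker levels with thiolutin bear on the 60S genes was not tested.

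Reads averaged 65.5 bases or slightly more, so a pair of paralogs can be told apart only where the copies differ within a read. In 24 of the 35 pairs, under 10% of the 65-base windows of the A copy also occurred in the B copy. RPL37A (chromosome XII, 522663 to 523288) and RPL37B (chromosome IV, 1450198 to 1450853) shared none, with 26 differing positions and 90.4% identity. The first coding bases of this pair, and of RPL9A (chromosome VII, 227754 to 228329) and RPL9B (chromosome XIV, 499681 to 500256), are shown because their copies changed unequally. RPL35A and RPL35B are shown as the contrast, a pair with 3 differing positions in which 79.6% of windows were shared and the split of reads between copies is uncertain. Bases that differ between the copies are in capitals. All are coding bases 1 to 90 of the R64 reference (RefSeq), 5′ to 3′, introns removed, and not read from the W303 strain.
RPL37A: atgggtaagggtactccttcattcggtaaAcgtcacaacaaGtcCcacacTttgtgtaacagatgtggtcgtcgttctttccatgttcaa
RPL37B: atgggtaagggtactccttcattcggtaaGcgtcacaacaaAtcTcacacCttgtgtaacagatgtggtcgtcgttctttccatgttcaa
RPL9A: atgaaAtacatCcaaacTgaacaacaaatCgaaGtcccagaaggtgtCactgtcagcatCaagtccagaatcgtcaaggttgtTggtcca
RPL9B: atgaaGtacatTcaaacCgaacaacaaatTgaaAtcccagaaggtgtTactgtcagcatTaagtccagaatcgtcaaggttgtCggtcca
RPL35A: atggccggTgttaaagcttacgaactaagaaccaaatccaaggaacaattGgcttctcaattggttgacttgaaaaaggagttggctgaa
RPL35B: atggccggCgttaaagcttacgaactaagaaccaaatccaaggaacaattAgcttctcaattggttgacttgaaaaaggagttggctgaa

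Log2 fold changes of 60S mRNAs spread less widely than those of all genes, and the sign of their median differed between scales. All 81 genes passed the filter on low counts. With TMM normalization, which sets the bulk of genes to no change, 21 of the 81 were higher with thiolutin at an adjusted p under 0.05 and 1, RPL9B, was lower. Among all 5527 genes tested, 18.5% were higher and 17.6% lower. None of the 81 passed the stricter threshold of 1e-05, which 0.995% of all genes did. The median log2 fold change of the 81 genes was 0.15, against -0.02 for all genes, with a range of -0.64 to 0.98. Their log2 fold changes had an SD of 0.35 across genes, against 0.92 across all genes tested. With DMSO the median level was 2604 rescaled TPM for the 81 genes and 20.3 for all protein-coding genes. The spread was not compared among genes of like level. In 33 of the 81 genes (40.7%) both thiolutin libraries lay above both DMSO libraries, and in 13 (16%) both lay below. Among all 5527 genes tested these shares were 33.2% and 36.7%.

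The counts depended on which libraries were in the fit. With 1 library left in a group, the spread between replicates was taken from the other group alone. Shares called among all genes in the same fits were not set beside the counts that follow. A change in these counts therefore need not be particular to the 60S genes. All genes tested had medians of -0.079 without thiolutin replicate a and -0.043 without thiolutin replicate b. Leaving out DMSO replicate a left 1 gene higher, RPP0, and 0 lower, and leaving out DMSO replicate b left 7 higher and 0 lower. Without thiolutin replicate a 25 genes were higher and 17 lower, with a median of -0.058. Without thiolutin replicate b 40 were higher and 2 lower, with a median of 0.30. The median log2 ratio to the DMSO mean was 0.32 for replicate a of the thiolutin group and -0.06 for its replicate b, so the direction of the set rested on replicate a. The direction also depended on which genes set the scale. When the 2276 genes with at least 50 counts in every library set it, 2 of 79 60S genes were higher, RPP0 and RPL4B, and 12 lower, with a median of -0.16. In rescaled TPM, compared as log2(value + 1), the median change of the 81 genes was -0.11, and that of the 3789 protein-coding genes averaging at least 10 was -0.17.

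Measured against the added S. pombe reads, nearly all 60S mRNAs had lower values with thiolutin, as did most of all genes tested. On this scale fewer yeast cells in a sample and less mRNA per cell cannot be told apart. This scale moved the median of all genes to -1.01, and that of the 81 genes was -0.85. On it 39 of the 81 were lower and 0 higher at an adjusted p under 0.05 (47 and 0 at an unadjusted p under 0.05), against 50.7% lower and 1.47% higher among all genes tested. With the replicate letter added to the fit as a block, 0 of the 81 were called lower. Without that block, the log2 fold change was below 0 in 80 of the 81, and the exception was RPP0 at 0.07 (adjusted p = 0.89). Among all 5527 genes tested only 381 were above 0, so values below 0 were not particular to the 60S genes. Of the 21 genes higher with TMM, 20 had values below 0 on the S. pombe scale and 0 were called lower. RPL9B had the lowest value, -1.62 (adjusted p = 6e-04), a level 0.324 times that with DMSO. The count of lower genes was 0 without either DMSO replicate, 54 without thiolutin replicate a and 79 without thiolutin replicate b. Without thiolutin replicate a, 1 gene was also called higher.

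**Figure D1:**
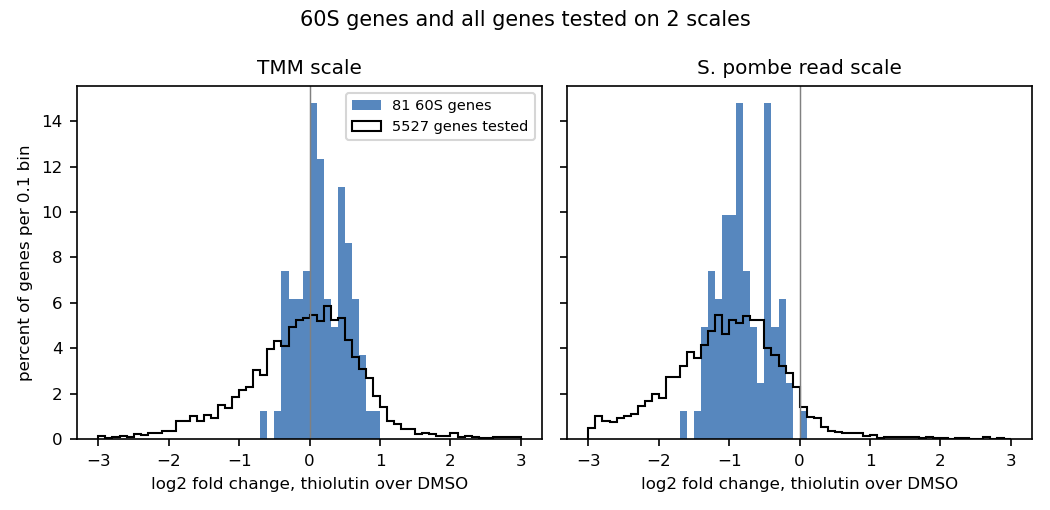
Percent of genes in bins of 0.1 against log2 fold change (thiolutin over DMSO), for the 81 60S genes (blue) and the 5527 genes tested (black outline), by TMM (left) and by S. pombe reads (right). Values beyond 3 in either direction are not drawn. The 60S genes lie within -0.64 to 0.98 with TMM, and their median moves to -0.85 on the S. pombe scale, where the median of all genes is -1.01.

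As a share of protein-coding expected counts, the 60S genes took 16.03% and 13.9% with thiolutin and 17.0% and 17.0% with DMSO. The mean share was 15.0% ± 1.48 with thiolutin and 17.0% ± 0.014 with DMSO (SD, n = 2 each). Both thiolutin libraries lay below both DMSO libraries, but the smallest p that an exact permutation test allows with 2 against 2 is 0.33. In rescaled TPM the 60S genes made up 27.6% and 25.5% of the protein-coding total with thiolutin, and 29.0% and 29.2% with DMSO. The 100 most abundant protein-coding mRNAs held 44 of the 81 genes with thiolutin and 47 with DMSO.

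Of the stalk genes, RPP0 changed most. RPP0, the protein that anchors the stalk to the rRNA, had normalised counts of 1456 and 1745 with thiolutin, against 796 and 818 with DMSO. The groups did not overlap, and thiolutin replicate b was the highest library. The log2 fold change was 0.98 (SE 0.15, adjusted p = 8e-04), the largest rise among the 81 genes. RPP0 was called higher in all 11 alternative analyses, with log2 fold changes of 0.67 to 1.11 and adjusted p of 4.14e-13 to 0.0161.

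P1 and P2 proteins bind P0 as heterodimers and contact the elongation factors. RPP2B rose as well, with 4243 and 4243 normalised counts with thiolutin and 2884 and 3018 with DMSO (log2 fold change 0.52, SE 0.15, adjusted p = 0.018). RPP2B was no longer called without DMSO replicate a, without DMSO replicate b, or with at least 50 counts in every library, where its log2 fold change was 0.22. RPP1A had 4037 and 3863 normalised counts with thiolutin and 2952 and 3075 with DMSO. Its libraries did not overlap, but the log2 fold change of 0.39 was not called (adjusted p = 0.062). RPP2A had 1441 and 1215 with thiolutin and 954 and 1189 with DMSO (0.31, adjusted p = 0.16). RPP1B, the scarcest of the stalk genes, had 166 and 115 with thiolutin and 97.2 and 120 with DMSO, so its libraries overlapped (0.41, adjusted p = 0.16). All 5 stalk genes had positive log2 fold changes by TMM, with a median of 0.41, and a median of -0.56 on the S. pombe scale.

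**Figure D2:**
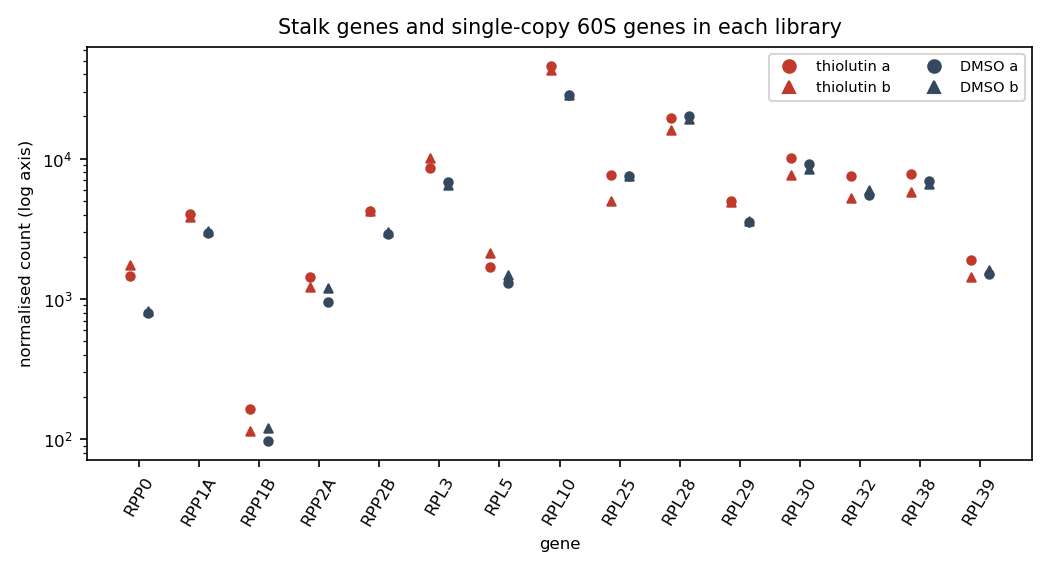
Normalised counts (log axis) of the 5 stalk genes and the 10 other single-copy 60S genes in each library, thiolutin in red on the left of each gene and DMSO in dark blue on the right, circles for replicate a and triangles for replicate b. RPP0 is at 1456 and 1745 with thiolutin against 796 and 818 with DMSO, and RPL28 and RPL30 overlap between groups.

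Of the 11 genes without a paralog, 4 (36.4%) were higher, RPP0, RPL10, RPL3 and RPL29, against 18.5% of all genes tested. RPL10, a protein that joins the subunit late, in the cytoplasm, and lies near the peptidyl transferase centre, had 45973 and 42944 normalised counts with thiolutin. With DMSO it had 28517 and 28222, which left a wide gap between the groups. The log2 fold change was 0.65 (SE 0.19, adjusted p = 0.021), and RPL10 was the most abundant 60S mRNA with thiolutin. RPL3, which also reaches towards the catalytic centre, had 8605 and 10119 with thiolutin and 6830 and 6485 with DMSO (0.49, adjusted p = 0.040). RPL29 had 4984 and 4943 with thiolutin and 3518 and 3592 with DMSO (0.48, adjusted p = 0.028). RPL10, RPL3 and RPL29 were not called when either DMSO replicate was left out, nor with at least 50 counts in every library, where their log2 fold changes were 0.34, 0.18 and 0.17.

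RPL5, the carrier of 5S rRNA, had 1678 and 2121 normalised counts with thiolutin and 1298 and 1474 with DMSO. Its libraries did not overlap, and the log2 fold change of 0.45 narrowly missed the threshold (adjusted p = 0.054). The other single-copy genes overlapped between groups. RPL25, which sits at the tunnel exit, had 7672 and 5034 with thiolutin and 7527 and 7540 with DMSO (-0.24, adjusted p = 0.37). RPL28 had 19568 and 16015 with thiolutin and 20087 and 19080 with DMSO (-0.14, adjusted p = 0.59). RPL30, whose protein represses splicing of its own transcript, had 10085 and 7597 with thiolutin and 9128 and 8471 with DMSO (0.01, adjusted p = 0.98). In each of these the higher thiolutin library was replicate a. RPL32, RPL38 and the tunnel protein gene RPL39 had log2 fold changes of 0.16, 0.02 and 0.09, with adjusted p of 0.55, 0.95 and 0.69.

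After RPP0 the largest rises were those of RPL4B, RPL37A, RPL6A, RPL34A and RPL6B, of which RPL37A and RPL34A are described with their pairs. RPL4 lines the exit tunnel and is escorted by the chaperone Acl4. RPL4B (chromosome IV, 471853 to 472941) had 754 and 730 normalised counts with thiolutin and 365 and 461 with DMSO. The groups did not overlap, with a log2 fold change of 0.84 (SE 0.16, adjusted p = 0.0022) that was called in 10 of 11 alternatives, all but that without DMSO replicate a. Its paralog RPL4A had 535 and 603 with thiolutin and 421 and 414 with DMSO (0.44, adjusted p = 0.035). The RPL4 copies shared 66.4% of their windows, so the split between them is uncertain. RPL6A had 2115 and 1898 with thiolutin and 995 and 1346 with DMSO (0.78, adjusted p = 0.0055), and RPL6B had 1132 and 1189 against 647 and 820 with DMSO (0.66, adjusted p = 0.0085). The RPL6 copies shared no window, and neither was called without DMSO replicate a, where their log2 fold changes were 0.58 and 0.50, or with at least 50 counts in every library, where these were 0.47 and 0.35.

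With the counts of paralogs summed, 11 of the 46 proteins were higher and 0 lower, against 18.6% higher and 17.6% lower among all 5468 features tested. The 11 were RPP0, RPL6, RPL4, RPL10, RPL17, RPL43, RPL29, RPL3, RPL7, RPL5 and the P2 proteins. RPL5 passed here (adjusted p = 0.049) and not in the fit of single genes. At an unadjusted p under 0.05, 0 proteins were lower, and DESeq2 called 13 higher and 0 lower. The median log2 fold change was 0.12. RPL6 as a whole had 3253 and 3084 normalised counts with thiolutin and 1644 and 2163 with DMSO (0.74, SE 0.17, adjusted p = 0.0057). RPL4 had 1291 and 1332 with thiolutin and 786 and 873 with DMSO (0.66, SE 0.14, adjusted p = 0.0046). RPL25 (-0.24) and RPL11 (-0.22), whose product binds 5S rRNA together with Rpl5, had the lowest values. RPL11 had 13123 and 10225 with thiolutin and 14155 and 13105 with DMSO, so the groups overlapped (adjusted p = 0.37). Without DMSO replicate a, 1 protein was higher, and without DMSO replicate b 2 were. Without thiolutin replicate a, 12 were higher and 5 lower with a median of -0.074, and without thiolutin replicate b 19 were higher and 0 lower. On the S. pombe scale 25 of the 46 proteins were lower and 0 higher (also 0 higher at an unadjusted p under 0.05), against 50.5% lower and 1.46% higher among all features. The median there was -0.87, against -1.02 for all features, and 45 of the 46 were below 0, all but RPP0. None of the 11 proteins that were higher by TMM was called in either direction on that scale.

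In 4 pairs both copies were called higher (RPL4, RPL6, RPL17 and RPL43), in 6 pairs the A copy alone and in 3 pairs the B copy alone. The copies had log2 fold changes of opposite sign in 18 of the 35 pairs by TMM and in 0 on the S. pombe scale. One copy passing the threshold and the other not does not show that they differ, so the difference between copies was tested for the 61 pairs of genes in the tables whose names differ only in a final A or B and that passed the filter.

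**Figure D3:**
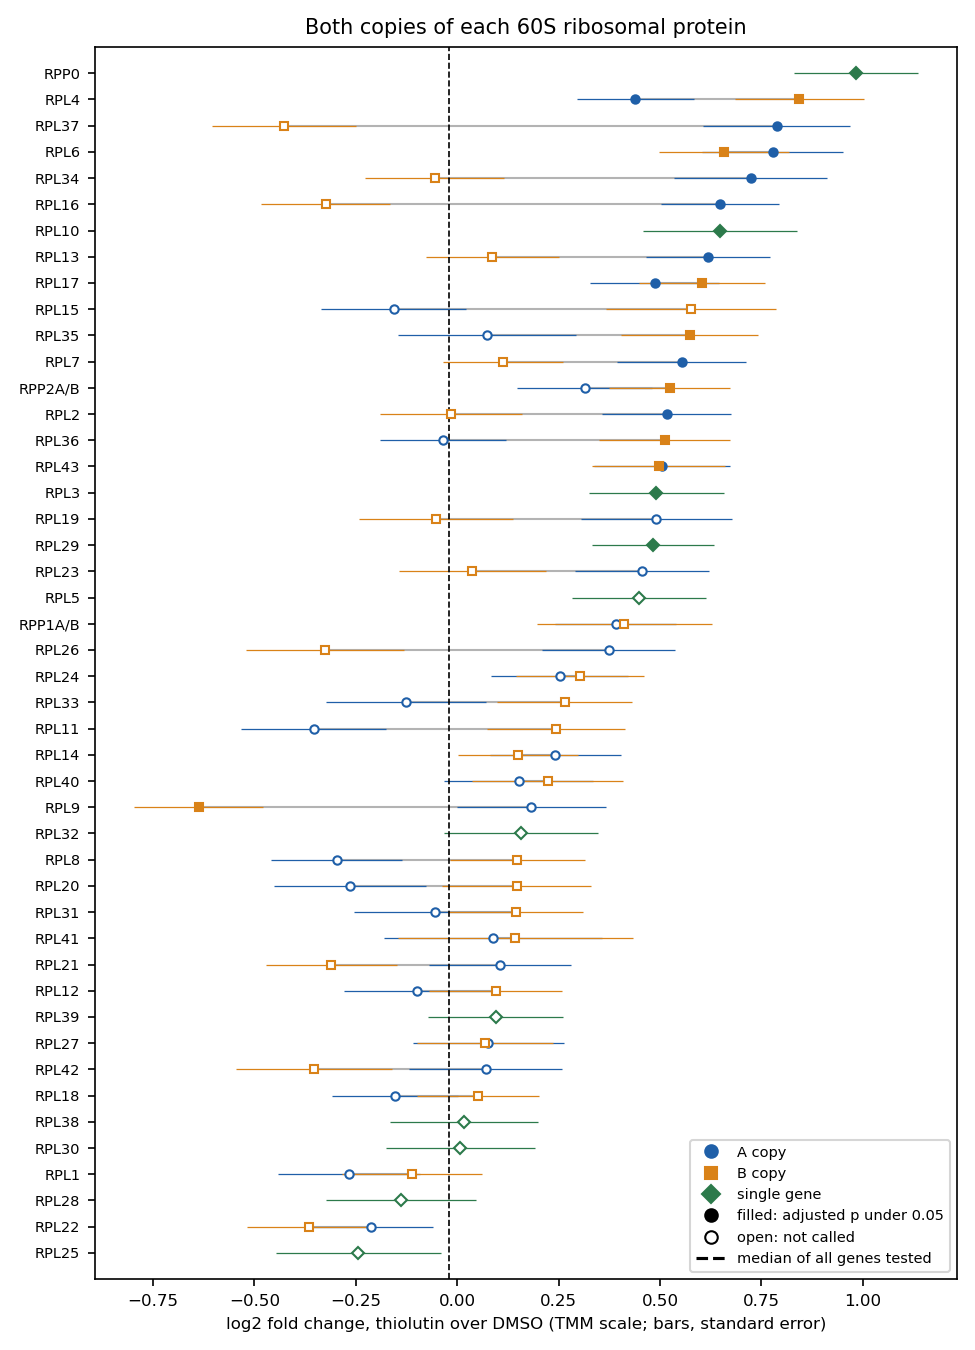
Log2 fold change (thiolutin over DMSO, TMM scale) with its standard error for each of the 46 60S proteins, A copies as blue circles, B copies as orange squares and single genes as green diamonds, filled where the adjusted p was under 0.05. The dashed line is the median of all genes tested, -0.02. RPP0 lies highest at 0.98, and RPL37 has the widest gap, with 0.79 for A and -0.43 for B.

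The 2 copies responded unequally in 6 of the 35 60S pairs (RPL37, RPL16, RPL9, RPL15, RPL26 and RPL34) at an adjusted p under 0.05. This was close to the share among all 61 pairs tested (16.4%) and to that outside the set, 4 of 26 pairs (15.4%). Most pairs outside the set encode proteins of the small ribosomal subunit. The 60S pairs were therefore not compared with yeast paralogs at large. With the replicate letter added to the fit as a block, 3 of the 6 were called, RPL37, RPL16 and RPL9. The comparison of copies sets a copy against its partner in the same library, so it does not depend on how libraries are scaled. In all 6 the A to B ratios of the thiolutin libraries lay on one side of those of the DMSO libraries, which held for 26 of the 35 pairs and 44 of all 61. In 5 of the 6 the copy that was scarcer with DMSO had the higher log2 fold change, and the exception was RPL9. The scarcer copy had the higher value in 20 of all 35 pairs, and DMSO values enter both the scarcity and the fold change.

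RPL37 showed the widest difference. RPL37A counts were 0.599 and 0.631 times those of RPL37B with thiolutin, against 0.232 and 0.296 times with DMSO. Normalised counts of RPL37A were 1715 and 1298 with thiolutin and 773 and 980 with DMSO, a rise (0.79, SE 0.18, adjusted p = 0.0063). RPL37B had 2866 and 2057 with thiolutin and 3328 and 3316 with DMSO (-0.43, adjusted p = 0.083). The difference between the copies was 1.21 on the log2 scale (adjusted p = 1e-04).

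RPL16, a protein whose copies shared no 65-base window, followed. The A to B ratio was 0.253 and 0.297 with thiolutin and 0.130 and 0.148 with DMSO, a difference of 0.97 (adjusted p = 7e-04). RPL16A rose, with 1210 and 1221 normalised counts with thiolutin and 728 and 822 with DMSO (0.65, adjusted p = 0.0057). RPL16B had 4786 and 4113 with thiolutin and 5582 and 5571 with DMSO (-0.32, adjusted p = 0.14).

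RPL9, located at the base of the stalk, shifted towards its major copy. The A to B ratio was 10.5 and 10.5 with thiolutin and 6.03 and 5.87 with DMSO, a difference of 0.82 (adjusted p = 0.0041). RPL9B was the 1 60S gene called lower by TMM. It had 1670 and 1345 normalised counts with thiolutin and 2373 and 2336 with DMSO (-0.64, SE 0.16, adjusted p = 0.0095). RPL9A had 17597 and 14188 with thiolutin and 14303 and 13704 with DMSO (0.18, adjusted p = 0.46).

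The remaining 3 called pairs had smaller differences. RPL34A stood at 1.56 and 1.45 times RPL34B with thiolutin and at 0.835 and 0.927 times with DMSO, so that the more abundant copy was A with thiolutin and B with DMSO (difference 0.78, adjusted p = 0.043). RPL34A rose (0.72, SE 0.19, adjusted p = 0.012), with 1425 and 953 normalised counts with thiolutin and 687 and 766 with DMSO, and RPL34B had a log2 fold change of -0.06 (adjusted p = 0.82). RPL26, near the tunnel exit, had A to B ratios of 0.382 and 0.448 with thiolutin and 0.243 and 0.260 with DMSO (difference 0.70, adjusted p = 0.043). Neither RPL26A (0.37, adjusted p = 0.098) nor RPL26B (-0.33, adjusted p = 0.22) was called on its own. RPL15B gave under 1% of the counts of its pair, with 162 and 165 normalised counts with thiolutin and 89.4 and 127 with DMSO (0.58, adjusted p = 0.052). RPL15A had 19221 and 17275 with thiolutin and 20739 and 19945 with DMSO (-0.16, adjusted p = 0.52), and the difference between copies was -0.73 (adjusted p = 0.032).

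These calls depended on which libraries were in the fit. With 1 library left in a group, the spread between replicates was taken from the other group alone. Replicates differed by more than sampling noise, with a chi-square per degree of freedom of 160 with thiolutin and 30.9 with DMSO. Whether this accounts for the calls lost or gained was not tested. Shares among all pairs tested in the same fits were not set beside the counts that follow. RPL37A and RPL34A were not called higher without DMSO replicate a, RPL16A was not called higher without either DMSO replicate, and RPL9B was not called lower without either. With at least 50 counts in every library RPL37A, RPL34A and RPL16A were not called either, at 0.48, 0.42 and 0.34, and RPL9B was still called, at -0.94. Without DMSO replicate a 0 of the 35 pairs were called, and without DMSO replicate b 1 was, RPL37. Without thiolutin replicate a 16 were called, 5 of the 6 among them, and without thiolutin replicate b 8 were, again with 5 of the 6. The difference for RPL37 stayed between 1.05 and 1.40 as each library was left out, that for RPL16 between 0.86 and 1.09, and that for RPL9 between 0.80 and 0.84. Fitting the log2 ratio of counts itself with limma called 17 pairs, with 1.23 (SE 0.15) for RPL37.

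**Figure D4:**
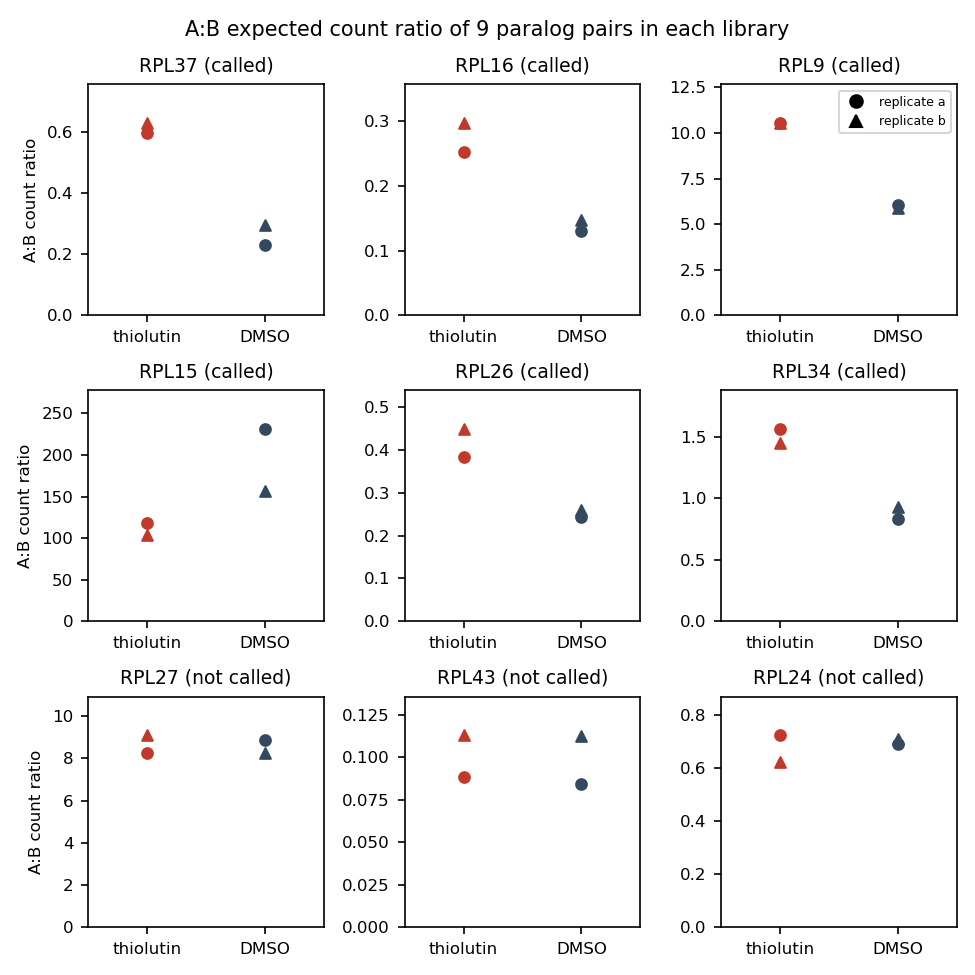
Ratio of A to B expected counts in each library for the 6 called pairs and for RPL27, RPL43 and RPL24, 3 pairs chosen after their values were seen because their copies differed little, thiolutin in red on the left and DMSO in dark blue on the right of each panel. RPL37 is at 0.599 and 0.631 with thiolutin against 0.232 and 0.296 with DMSO, and RPL27 overlaps at 8.26 and 9.11 against 8.87 and 8.24.

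Pairs can also be very uneven in level. In DMSO replicate a, 14 of the 35 had an A copy with at least 80% or at most 20% of the counts of the pair. In rescaled TPM, which allows comparison between genes, the lowest 60S gene was RPL15B in both groups, at a mean of 69.9 with thiolutin and 54.7 with DMSO. The highest was RPL10 at 17402 with thiolutin, and RPL27A at 15784 with DMSO. RPL27A had 14391 and 13747 rescaled TPM with thiolutin and 16312 and 15256 with DMSO, and its TMM log2 fold change was 0.08 (adjusted p = 0.77). Per protein, with copies summed, the range was still 57.6-fold with thiolutin and 91.7-fold with DMSO. RPL4 was the lowest in both groups, at 302 with thiolutin and 225 with DMSO. Among the 81 genes, the log2 fold change correlated with the log2 level in DMSO at r = -0.37 and with coding GC content at r = 0.33. These are across genes that share libraries, and DMSO values enter both axes of the first. Less abundant copies had a median log2 fold change of 0.24 and more abundant copies one of 0.09. Of these, 10 and 7 of 35 were called higher, against 18.5% of all genes tested. The less abundant copy had the higher value in 20 of the 35 pairs. Abundance was taken with DMSO, so DMSO values enter this comparison as well.

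**Figure D5:**
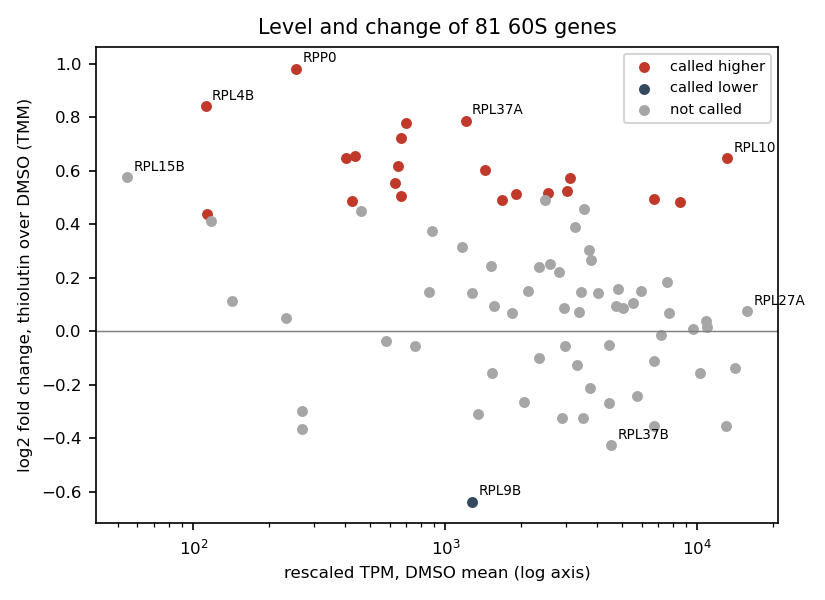
Log2 fold change (thiolutin over DMSO, TMM) against the mean rescaled TPM in DMSO (log axis) for the 81 60S genes, red where called higher, dark blue where called lower and grey where not called. RPP0 and RPL4B lie at low levels and high fold changes, RPL10 combines a high level with a log2 fold change of 0.65, and RPL9B is the 1 gene called lower.

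Rises were found among genes with and without an intron. Of the 53 with an intron in the coding region 14 (26.4%) were higher and 0 lower (2 lower at an unadjusted p under 0.05), with a median of 0.11. Of the 28 without one 7 (25%) were higher and 1 lower, with a median of 0.21. Among all genes tested 18.5% were higher and 17.6% lower. The tables give the spliced coding length for all 81 genes. Introns of RPL7A and RPL7B each host a snoRNA. snR39, in RPL7A, had 34 and 5 expected counts with thiolutin and 46 and 69 with DMSO, and snR59, in RPL7B, had 0 and 2 with thiolutin and 1 and 2 with DMSO.

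The core of the Rap1 site was searched on both strands as ACCCANACA, where N is any base. It lay within 300 bases upstream of the start codon in 14 of the 81 genes (17.3%), against 1.69% of all protein-coding genes, and within 500 bases in 29 (35.8%), against 3.09%. Of the called pairs, only RPL26 and RPL34 had the core within 500 bases in both copies, and their windows are shown. RPL37, RPL16 and RPL15 had it in neither copy, and RPL9 had it in the A copy alone. RPL28 is shown as an abundant gene that was not called. The core, or its reverse complement, is in capitals. All windows are from R64 (RefSeq), written on the strand of the gene.
RPL26A, chrXII:819017-819076, plus strand: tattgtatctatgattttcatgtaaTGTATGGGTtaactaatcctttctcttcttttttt
RPL26B, chrVII:555503-555562, plus strand: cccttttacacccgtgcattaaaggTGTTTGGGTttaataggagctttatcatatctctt
RPL34A, chrV:270463-270522, minus strand: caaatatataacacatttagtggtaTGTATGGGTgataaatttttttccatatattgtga
RPL34B, chrIX:257481-257540, minus strand: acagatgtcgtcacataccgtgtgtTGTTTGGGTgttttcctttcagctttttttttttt
RPL28, chrVII:310678-310737, plus strand: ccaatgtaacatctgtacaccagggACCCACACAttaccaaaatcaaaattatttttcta
Distances were taken from the end of the core nearest the start codon. That end lay 262 and 276 bases upstream in RPL26A and RPL26B, and 256 bases upstream in RPL28. In RPL34A and RPL34B it lay 304 and 444 bases upstream, outside the 300-base window. Genes with the core within 300 bases had a median log2 fold change of 0.31 (4 of 14 higher) and those without it 0.14 (17 of 67 higher). Among all genes tested 18.5% were higher. With the 500-base window, chosen after the data were seen, the order of the medians turned round, to 0.09 with the core and 0.15 without. Motifs of 3 other factors were not more common than in all genes within 300 bases. TTACCCG (Reb1) was in 4.94% of the 81 genes against 7.92% of all, ACCCTAA (Tbf1) in 1.23% against 2.37%, and TCA and ACG 6 bases apart (Abf1) in 8.64% against 15.0%. A match gives the letters only, not binding.

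Among the other genes of the pathway, the 40S ribosomal protein genes had a TMM median of 0.20, with 8 of 56 higher and 5 lower, against 18.5% higher and 17.6% lower among all genes tested, to which the TMM counts of the other lists compare as well. Mitochondrial large-subunit genes had 0 of 34 higher (also 0 at an unadjusted p under 0.05) and 14 lower, with a median of -0.48. Of 20 regulators tested, 1 was higher and 3 lower by TMM, and 0 higher and 13 lower on the S. pombe scale, where 50.7% of all genes were lower. The activators FHL1 and SFP1 fell, FHL1 with 47.3 and 44.1 normalised counts with thiolutin and 131 and 118 with DMSO (-1.43, adjusted p = 8e-04) and SFP1 with 19.2 and 29.4 against 42.6 and 59.9 with DMSO (-1.20, adjusted p = 0.023). The kinase gene SCH9 fell by 1.38 on the log2 scale (adjusted p = 0.012), and FPR1, a proline isomerase gene, rose (0.73, adjusted p = 0.006). RAP1 (-0.30, adjusted p = 0.55) and IFH1 (-0.08, adjusted p = 0.79) were not called by TMM.

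Dedicated chaperones and importers of 60S proteins had 3 of 10 higher and 0 lower by TMM (also 0 lower at an unadjusted p under 0.05), and 0 higher and 1 lower on the S. pombe scale. ACL4, the chaperone of Rpl4, had 613 and 768 normalised counts with thiolutin and 333 and 309 with DMSO (1.09, SE 0.16, adjusted p = 5e-04). RRB1, the chaperone of Rpl3, had 1531 and 1830 with thiolutin and 956 and 1049 with DMSO (0.74, adjusted p = 0.0039), and the importer gene KAP123 rose as well (0.73, adjusted p = 0.005). On the S. pombe scale ACL4, RRB1 and KAP123 were at 0.18, -0.17 and -0.17 and not called (adjusted p of 0.72 to 0.73). SQT1, the chaperone of Rpl10, did not pass (0.07, adjusted p = 0.75). Of 70 assembly factors of the 60S subunit 19 were higher and 12 lower by TMM, with a median of 0.21, and 0 higher and 26 lower on the S. pombe scale, with a median of -0.73. The counts of 0 higher on that scale for regulators, chaperones and importers, and assembly factors were also 0 at an unadjusted p under 0.05. NOP7 rose most (1.24, adjusted p = 2e-04) and ALB1, a shuttling factor, fell most (-2.25, adjusted p = 7e-05). Of 9 subunit-joining and stalk-binding factors 3 were higher, EFT2 and TEF2 (elongation factors) and FUN12 (an initiation factor), and 1, TIF6, was lower. EFT2 and TEF2 were at 0.69 and 0.75. Their paralogs EFT1 (0.32, adjusted p = 0.13) and TEF1 (0.34, adjusted p = 0.18) were not called. How well reads separate these copies was not examined, so a rise of 1 copy alone is not shown.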

How the data were processed

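RNA-seq tables of 4 libraries were used. Per the labels and the study's methods, reads were mapped to sacCer3 by the authors with STAR 2.7.3a, and genes were quantified with RSEM 1.3.1 set to reverse strandedness (single-end reads). The deposited expected counts are estimated reads per gene without normalization, in which RSEM divides reads that match several genes. The deposited TPM values were adjusted by the authors for length, and were rescaled here to sum to 1000000 over protein-coding genes. Deposited FPKM values were not used. Library sizes for the second scale were the S. pombe reads, aligned with Bowtie 1.2.2, that the study lists per library. Coordinates and sequences are those of R64 (RefSeq).

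Expected counts were rounded (ties up), filtered with filterByExpr, normalized by TMM and tested with the quasi-likelihood test of edgeR 4.0.16 (R 4.3.3). P-values were adjusted over all 5527 genes by the Benjamini-Hochberg method. Standard errors are the log2 fold change over the square root of F. Paralog pairs were compared with diffSpliceDGE over 61 pairs. Alternatives used limma 3.58.1 and DESeq2 1.42.0. The tests were checked on simulated data. Replicates differed by more than sampling noise and were kept separate.

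The members, lists and tests were chosen with earlier results of these data known. Genes were named if they passed 1e-05, were among the 6 largest rises or falls called, encoded the stalk, had no paralog, belonged to the 6 pairs with the largest difference (at least 50 normalised counts), or were among the 3 most abundant with DMSO. Other genes named were chosen after their values were seen.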

Additional observations from a re-analysis of the deposited data

How the results depend on the processing

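With 2 libraries per group, depth and the lone library left in a group limit every count, and where 1 library was left out it was assumed to vary like the other group. Of the 60S genes, 21 were higher and 1 lower by TMM. A minimum of 50 counts in every library gave 2 higher and 12 lower with a median of -0.16, by construction a scale set by 2276 genes. Without a filter, 2 were lower, and with a replicate block also 2. The a minus b differences of the 2 groups correlated at r = 0.03 over 5527 genes. This gave no sign that the letters a and b pair the samples. It cannot exclude a shared origin, which the labels do not state. Leaving out 1 library gave 1 to 40 higher, 0 to 17 lower and medians of -0.058 to 0.30. For summed proteins this gave 1 to 19 higher, 0 to 5 lower and medians of -0.074 to 0.25, and the replicate block gave 12 higher. On the S. pombe scale, 25S and 18S rRNA counts as the scale gave 80 lower with a median of -1.07, the replicate block 0 lower, and leaving out 1 library 0 to 79 lower and 0 to 1 higher. Of the 6 called pairs, the replicate block kept 3 (RPL37, RPL16 and RPL9). Limma called 17 pairs, and leaving out 1 library gave 0 to 16. The difference in median between genes with and without the Rap1 core was 0.17 with 300 bases and -0.052 with 500 bases, a window chosen after the data were seen.

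Directions that turned were all of genes not called. With at least 50 counts in every library RPL27A was at -0.23, RPL30 at -0.30, RPL32 at -0.15, RPL38 at -0.29, RPL39 at -0.21 and RPL9A at -0.12. RPL30 was at -0.0027 without a filter and at -0.0061 with the replicate block. As each library was left out, RPL25 ranged from -0.58 to 0.0079, RPL27A from -0.058 to 0.18, RPL30 from -0.21 to 0.18, RPL32 from -0.12 to 0.37, RPL34B from -0.33 to 0.13, RPL38 from -0.21 to 0.20 and RPL39 from -0.13 to 0.26. The cause was not tested. DESeq2, the likelihood ratio test, other size factors and TMM over protein-coding genes turned no named gene.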
